A study of Mus musculus with 3 samples.

Results

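The Ly6 family surface proteins described here are the products of 8 genes of the count table, Ly6a, Ly6c1, Ly6c2, Ly6d, Ly6e, Ly6h, Gpihbp1 and Cd59a, chosen by their symbols from 56941 genes in all. They were measured by bulk RNA sequencing of polyadenylated RNA from brain microvascular fragments, which are short pieces of small vessel freed from the brain with the cells that stay attached to them. The 3 libraries came from 3 adult wild-type C57BL/6J mice and form 1 group, so the data hold no treated, mutant or whole-brain samples. Fragments carry several cell types, and no sort for endothelial cells is stated in the labels.

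Proteins of the Ly6/uPAR family carry a compact domain held together by disulfide bonds, and most are tethered to the outer face of the plasma membrane by a glycosylphosphatidylinositol (GPI) lipid anchor. Ly6a (also called Sca-1) marks endothelial and stem cells, and on brain endothelium of C57BL/6J mice it is the receptor by which AAV-PHP.eB capsids enter. Ly6c1 marks brain endothelium and Ly6c2 marks inflammatory monocytes. Ly6e is induced by interferon and serves as the receptor of syncytin-A in mouse placenta. Ly6d marks keratinocytes and early B-lineage cells, and Ly6h is a neuronal protein that acts on nicotinic receptors. Gpihbp1 carries lipoprotein lipase across capillary endothelium, and Cd59a blocks the last step of complement attack on host cells.

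Ly6c1 and Ly6c2 are near-identical paralogs close to each other in the genome whose counts stood far apart, so their promoters are shown first. Both are on the minus strand of chromosome 15, at chr15:75048788-75049087 for Ly6c1 and at chr15:75111922-75112221 for Ly6c2 (build GRCm38.p6, RefSeq). Each window of 300 bases runs from 250 bases before the annotated start to 50 bases after it. Capitals mark bases without an identical partner in a global alignment of both windows, unaligned ends included.
Ly6c1: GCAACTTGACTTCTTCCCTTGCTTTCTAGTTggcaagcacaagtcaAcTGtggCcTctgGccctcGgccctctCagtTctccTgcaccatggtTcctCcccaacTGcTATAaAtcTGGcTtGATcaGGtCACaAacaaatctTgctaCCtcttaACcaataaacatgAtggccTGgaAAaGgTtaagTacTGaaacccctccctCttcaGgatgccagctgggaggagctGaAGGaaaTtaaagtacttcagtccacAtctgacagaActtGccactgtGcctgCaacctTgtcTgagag
Ly6c2: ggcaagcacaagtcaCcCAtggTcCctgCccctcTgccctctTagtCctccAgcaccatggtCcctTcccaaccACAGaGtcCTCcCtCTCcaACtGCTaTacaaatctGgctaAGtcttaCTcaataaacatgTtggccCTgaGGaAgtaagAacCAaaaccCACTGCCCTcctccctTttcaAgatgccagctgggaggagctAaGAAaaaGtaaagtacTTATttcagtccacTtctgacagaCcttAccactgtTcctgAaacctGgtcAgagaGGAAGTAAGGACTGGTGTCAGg
Of 266 aligned positions, 208 were identical (78.2%), and 92 bases of each window had no identical partner. The longest run that both windows hold is gatgccagctgggaggagct, of 20 bases. The letters TATAAA, searched on both strands, occurred 1 time in the Ly6c1 window and 0 times in that of Ly6c2, against 13.6% of all 32851 promoter windows in the same table. The ETS core GGAAGT, on both strands, occurred 0 times in the Ly6c1 window and 2 times in the Ly6c2 window, against 23.8% of all windows. The interferon motif TTCNNNGAA, which reads the same on both strands, occurred in neither and is present in 8.3% of all windows. Of the 8 genes only these and Cd59a had an entry in the promoter table (3 of 8).

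The family was made up of 3 very abundant transcripts, 1 of intermediate level and 4 at a few CPM or less. Levels are given as CPM, the counts of a gene per TMM-scaled library total, and a gene counted as detected where no library had less than 1 CPM. By that rule 6 of the 8 genes were detected, against 23.2% of all genes in the table, and Ly6h and Ly6c2 were not. The 8 genes were chosen with earlier results of these data known, so that share depends on the choice. All 8 had counts in every library. Ly6a, Ly6c1 and Ly6e each exceeded 1000 CPM in every library, a level that 0.149% of all genes reached. Together those 3 genes held 98.2%, 98.5% and 98.6% of the family's counts in replicates 1, 2 and 3. The family as a whole made up 0.649%, 0.681% and 0.831% of all counts in the same libraries.

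**Figure D1:**
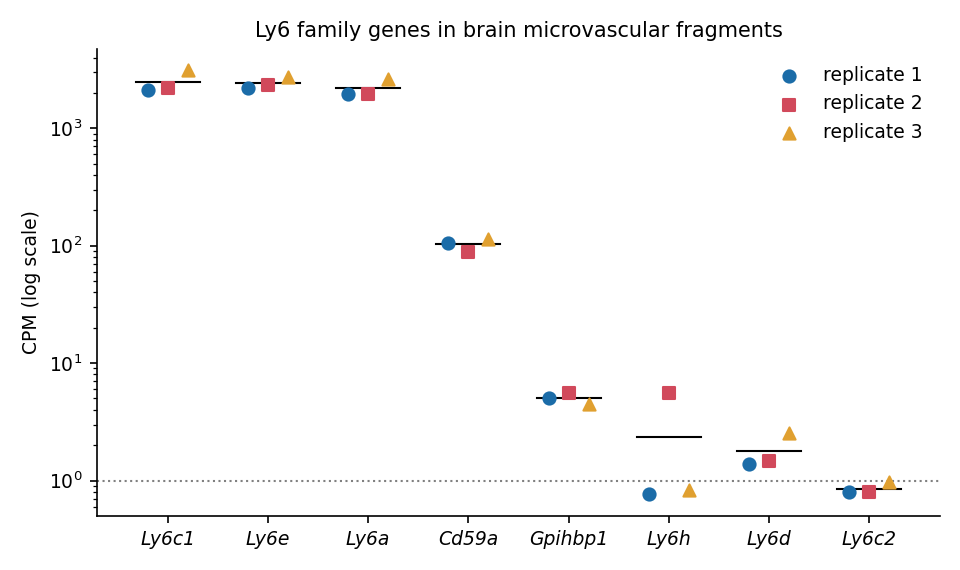
CPM of the 8 genes in each of the 3 libraries on a log scale; points are single libraries, black lines are means and the dotted line is 1 CPM. Ly6c1, Ly6e and Ly6a lie near or above 2000 CPM in every library, and Ly6h stands at 5.52 CPM in replicate 2, against 0.761 and 0.827 CPM in replicates 1 and 3.

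Ly6a, the endothelial and stem cell antigen, had 1967, 1978 and 2632 CPM in replicates 1, 2 and 3 (mean 2192 ± 381 CPM, SD, n = 3). Ly6c1, the brain endothelial member, had 2113, 2223 and 3109 CPM (2481 ± 546 CPM). Both were highest in replicate 3 and nearly level in the other 2 libraries. Ly6e, the interferon-inducible member, had 2210.4, 2351 and 2748 CPM (2437 ± 279 CPM), and it too was highest in replicate 3 but by a smaller step. The highest library exceeded the lowest by 1.34-fold for Ly6a, 1.47-fold for Ly6c1 and 1.24-fold for Ly6e.

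The endothelial markers were also highest in replicate 3 in 13 of 16 genes. Their summed level was 20530.5, 22770 and 24671 CPM in replicates 1, 2 and 3. The median of the endothelial genes was then subtracted from each member's level on the log2(CPM + 1) scale, library by library. The SD of Ly6e over the libraries was then 0.02, against 0.16 before. For Ly6a it was 0.11, against 0.24 before, and for Ly6c1 0.16, against 0.30 before. The SD also fell for Ly6d (0.174, against 0.315) and barely changed for Cd59a (0.175, against 0.180). It rose for Gpihbp1 (0.256, against 0.125), Ly6c2 (0.089, against 0.073) and Ly6h (1.106, against 1.076). At the low levels of Ly6d, Ly6c2, Ly6h and Gpihbp1 the pseudocount of 1 shrinks deviations. With a pseudocount of 0.5, the SD after subtraction was 0.238 for Ly6d, 0.070 for Ly6c2, 1.310 for Ly6h and 0.267 for Gpihbp1. The SD before subtraction was computed only with a pseudocount of 1. The median of 9 blood-brain barrier endothelial genes was also subtracted instead. The SDs of the 3 abundant genes were then wider than with no subtraction, at 0.25 for Ly6e, 0.34 for Ly6a and 0.37 for Ly6c1. Ly6a stood 1.01, 0.91 and 1.13 above the endothelial median in replicates 1, 2 and 3, Ly6c1 1.11, 1.07 and 1.37, and Ly6e 1.18, 1.16 and 1.19. Of the 8 genes these 3 were above that median in every library. Above the barrier median they stood by a mean of 0.26 (Ly6a), 0.43 (Ly6c1) and 0.42 (Ly6e), and 2 of the 3 were above it in every library. The values are not scaled by length and describe 3 libraries, and a sign-flip test over 3 libraries cannot go below a two-sided p of 0.25. In bulk RNA, fewer cells of a type and less RNA per cell cannot be told apart.

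Ly6c2, the monocyte paralog of Ly6c1, had 104, 112 and 140 counts, or 0.799, 0.801 and 0.964 CPM, in replicates 1, 2 and 3. Ly6c1 had 274955, 310677 and 451297 counts in those libraries. Ly6c1 therefore held 99.962%, 99.964% and 99.969% of the counts of the pair (exact binomial 95% intervals 99.954 to 99.969%, 99.957 to 99.970% and 99.963 to 99.974%, counting error only; mean 99.965% ± 0.0035, SD, n = 3). The 2 reference transcripts (Ly6c1-201 and Ly6c2-201, GENCODE M21) were identical at 802 of 822 aligned bases, or 97.6%. Of the windows of 150 bases in the Ly6c2 transcript, 5.79% occur unchanged in a transcript of another gene, always Ly6c1; of windows of 50 bases, 33.0% do, in Ly6c1, Ly6a or I830127L07Rik. How reads that fit both genes were counted is not given in the sources used here. The count of Ly6c2 equalled 0.0378%, 0.0361% and 0.0310% of that of Ly6c1, so what part of it came from Ly6c1 transcripts cannot be told.

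Markers of the blood cells that carry Ly6c2 were low as well. Of 14 monocyte, neutrophil and lymphocyte markers 7 were detected, with a summed level of 66.9, 45.3 and 42.7 CPM in replicates 1, 2 and 3. Ccr2, the chemokine receptor of inflammatory monocytes, had 2.71, 1.18 and 1.06 CPM. The list and Ccr2 were highest in replicate 1, and Ly6c2 in replicate 3. Ptprc, the pan-leukocyte antigen CD45, was the highest of the list by CPM with 26.1 ± 5.33 CPM (SD, n = 3). It made up 32.1, 22.1 and 24.0 CPM of the sum and is not particular to cells that carry Ly6c2. Cd3e of T cells was the lowest with 0.335 ± 0.184 CPM.

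Cd59a, the complement inhibitor, had 105, 88.8 and 114 CPM in replicates 1, 2 and 3 (102 ± 12.6 CPM). It was lowest in replicate 2, and so were the sums of 5 marker lists. The sums of all other cell-type lists, endothelial and pericyte markers among them, were lowest in replicate 1 or 3. In replicates 1, 2 and 3 microglial markers summed to 7093, 5433 and 6587 CPM, smooth muscle markers to 6105, 5377 and 6149 CPM and fibroblast markers to 803, 781 and 914 CPM. Border macrophage markers summed to 30.6, 18.7 and 26.7 CPM and neuronal markers to 126, 103 and 119 CPM. The neuronal sum was mostly Stmn2, with 80.5, 70.0 and 87.6 CPM. The median of the neuronal list on the log2(CPM + 1) scale was instead lowest in replicate 3 (2.48, 2.29 and 2.21). The part of the cells of these 5 lists in the level of Cd59a was not tested. Its neighbour and paralog Cd59b had 1.98, 1.43 and 1.83 CPM. Cd59a held 98.2%, 98.4% and 98.4% of the counts of that pair, with exact 95% intervals of 97.9 to 98.4%, 98.2 to 98.6% and 98.2 to 98.6%. Of the windows of 50 bases in its transcript, 4.26% occur in Cd59b.

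RNA of other regulators of complement was present beside that of Cd59a, and RNA of the terminal pathway components was nearly absent. Protein was not measured. Of 6 regulators 4 were detected, among them Clu (clusterin) at 731 ± 114 CPM and Cr1l, which encodes the rodent regulator Crry, at 175 ± 16.6 CPM. Cd55b had no count in any library. Of 7 components of the terminal pathway only C8g was detected (1.45 ± 0.204 CPM), and C8b had no count. The summed level of those 7 was 1.68, 2.04 and 1.61 CPM in replicates 1, 2 and 3.

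Gpihbp1, the capillary carrier of lipoprotein lipase, had 659, 773 and 652 counts, or 5.06, 5.53 and 4.49 CPM, in replicates 1, 2 and 3 (5.03 ± 0.520 CPM). It was highest in replicate 2 and lowest in replicate 3, unlike the abundant members. In mouse it is known from capillaries of heart and fat, and capillaries of brain parenchyma are known to lack it. Markers of peripheral and fenestrated capillaries were present in the same libraries, with 6 of 7 detected and a summed level of 191, 198 and 188 CPM. That sum was mostly Plvap, the diaphragm protein of fenestrae, with 98.8, 107 and 107 CPM, and Aqp1. Aqp1 had 60.95, 60.49 and 34.51 CPM (52.0 ± 15.1 CPM), and Cd300lg had 16.7, 16.7 and 24.3 CPM. Cd36 and Fabp4 were detected but low, with 1.79, 1.13 and 1.564 CPM and with 1.898, 1.331 and 3.362 CPM. Aqp7 had 0.0242 ± 0.00871 CPM. Markers of choroid plexus, a tissue with fenestrated capillaries, were all detected (6 of 6) and summed to 6808, 8123 and 5018 CPM. Aqp1 was lowest in replicate 3, as that sum was, and which cells its RNA came from was not tested. Of the 6 detected peripheral markers, 2 were highest in replicate 1, 0 in replicate 2 and 4 in replicate 3. The choroid plexus sum was mostly Ttr, with 6329, 7759 and 4759 CPM. By gene, 3 of the 6 choroid plexus markers were highest in replicate 1, 2 in replicate 2 and 1 in replicate 3. The part of such vessels in the level of Gpihbp1 was not tested.

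The partners of Gpihbp1 were measured at moderate or low levels. Of 11 genes of the lipoprotein lipase axis 5 were detected. Sel1l and Lmf1, which are needed for lipase folding, had 170.1 ± 6.00 CPM and 25.1 ± 1.34 CPM. Lpl itself, the lipase, had 29.2, 16.4 and 25.1 CPM in replicates 1, 2 and 3, and Angptl4, its inhibitor, had 51.4, 25.9 and 99.7 CPM. Both were lowest in replicate 2, and neither passed the test of variability described below (edgeR adjusted p = 0.900 and 0.184). Apoc2, the activator of the lipase, had no count in any library.

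Ly6d, the keratinocyte and B-lineage marker, had 180, 205 and 368 counts, or 1.38, 1.47 and 2.54 CPM, in replicates 1, 2 and 3 (1.80 ± 0.642 CPM). Replicate 3 was 1.83-fold above replicate 1. The B-cell gene Cd79a (4.41, 3.71 and 5.31 CPM) was also highest in replicate 3, but lowest in replicate 2. Of the 14 monocyte, neutrophil and lymphocyte markers, 3 were highest in replicate 3 and 11 in replicate 1. Of all genes tested, 34.5% were highest in replicate 3. Of 6 epithelial markers 3 were detected, with a summed level of 20.2, 28.2 and 13.0 CPM that was lowest in replicate 3. Krt18 and Krt8, keratins of simple epithelia, led that list with 10.4 ± 2.47 CPM and 5.36 ± 1.92 CPM, and the keratinocyte genes Krt5 and Krt14 had at most 0.129 CPM in any library. The part of B cells in the level of Ly6d was not tested.

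Ly6h, the neuronal member, was the only one to differ several-fold between the mice. It had 99, 772 and 120 counts, or 0.761, 5.52 and 0.827 CPM, in replicates 1, 2 and 3. The mean was 2.37 ± 2.73 CPM with replicate 2 and 0.794 CPM without it. Replicate 2 was 7.26-fold above replicate 1. Its quasi-dispersion was 39.8 times that of the trend for genes of its level.

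The hormone genes of the anterior pituitary moved in the same direction as Ly6h. In replicates 1, 2 and 3, the growth hormone gene Gh stood at 0.108, 1233 and 0.262 CPM, the prolactin gene Prl at 0.200, 47.8 and 0.475 CPM and the hormone subunit gene Cga at 0.922, 45.0 and 1.14 CPM. Pomc, which encodes the precursor of corticotropin, had 2308, 14609 and 2176 counts. All 4 were highest in replicate 2, as was the epithelial gene Epcam (1.31, 6.66 and 1.10 CPM). Neuronal markers did not share that order. They summed to 126, 103 and 119 CPM in replicates 1, 2 and 3, 8 of 10 were highest in replicate 1, and Snap25 had 15.3, 6.57 and 4.08 CPM. Gad2 was the lowest neuronal marker with 0.728 ± 0.198 CPM. The part of pituitary RNA in the level of Ly6h was not tested.

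None of the 8 genes passed a test of variability between the mice. The test compared each gene's quasi-dispersion with the trend for its level over 18087 genes in edgeR, by a one-sided F test, and called 15 genes at a Benjamini-Hochberg adjusted p under 0.05, or 0.0829%. Of the 8 genes 0 were called and 1, Ly6h, had an unadjusted p under 0.05 (edgeR adjusted p = 0.282), against 5.18% of all genes. The other 7 had an edgeR adjusted p of 0.993. With no filter on low counts, edgeR called 0.567% of 30513 genes and Ly6h among them (adjusted p = 0.00049). Over the alternatives run, the edgeR adjusted p of Ly6h ranged from 0.00049 to 0.997. DESeq2 marked 1 of the 8 as a dispersion outlier, again Ly6h, against 0.449% of all genes. Ly6d, with a 1.83-fold range, was not called in any setting run.

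**Figure D2:**
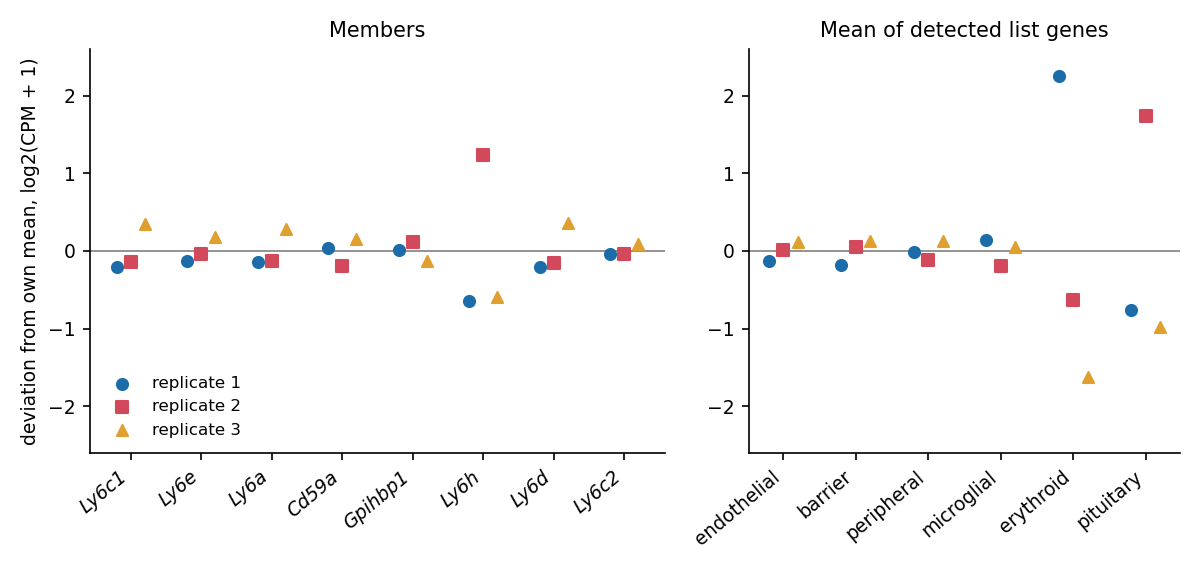
Deviation of each library from the gene's own mean over the 3 libraries, on the log2(CPM + 1) scale, for the 8 genes (left) and for the mean of the detected genes of 6 marker lists (right). Ly6h stands at 1.24 in replicate 2; the pituitary point rests on Pomc, the 1 detected gene of that list, at 1.74 in the same library.

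Most of the family was highest in the same library. Of the 8 genes 6 had their highest level in replicate 3 and 2 (Ly6h and Gpihbp1) in replicate 2, while 34.5% of all genes tested were highest in replicate 3. The count of 6 was the same with library totals and with DESeq2 size factors. Among the 182 other detected genes of all the lists, those nearest to each of the 6 detected members were found by Euclidean distance between deviations on the log2(CPM + 1) scale over the 3 libraries. Nearest to Ly6a were Esam (0.07), Cd300lg (0.09) and Mgp (0.11), and nearest to Ly6c1 were Cd300lg (0.05), Tcf15 (0.07) and Plaur (0.10). Ly6d had the same 3 neighbours as Ly6c1, at 0.04, 0.05 and 0.08. At the 1.38 to 2.54 CPM of Ly6d, however, the pseudocount of 1 shrinks deviations. In CPM the highest library of Ly6d exceeded the lowest by 1.83-fold, against 1.47-fold for Ly6c1. Nearest to Ly6e were Mgp (0.02), Abcb1a (0.04) and Reck (0.04), nearest to Gpihbp1 were Itm2a (0.01), Foxj1 (0.03) and Alpl (0.05), and nearest to Cd59a were C1qb (0.01), Acta2 (0.02) and Stmn2 (0.03). Distances over only 3 libraries are a description, given with no test.

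Levels of different genes were compared as CPM per kb of exon, with exon lengths from GENCODE M21. On that scale Ly6a had 1633, 1641 and 2184 CPM per kb in replicates 1, 2 and 3 and Ly6c1 had 1259.8, 1325 and 1854 CPM per kb. Their ranges overlapped, though Ly6a was the higher in 3 of 3 libraries by 0.31 ± 0.07 (log2 ratio, SD, n = 3). Ly6e followed at 644 ± 73.6 CPM per kb and Cd59a at 56.6 ± 6.95 CPM per kb, each with a range below that of the gene before it. Ly6d had 2.41 ± 0.864 and Gpihbp1 1.97 ± 0.204 CPM per kb, and their ranges overlapped. Ly6h (0.561 ± 0.646 CPM per kb) and Ly6c2 (0.312 ± 0.0346 CPM per kb) came last with overlapping ranges.

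The order within the abundant and the low genes depends on the length used. The exons of all isoforms of Ly6e span 3784 bases together, but the median coding transcript is 795 bases long. Scaled by the median coding transcript, a choice made after the data were seen, Ly6c1 had 4595 ± 1012 CPM per kb, Ly6e 3065 ± 351 CPM per kb and Ly6a 2558 ± 444 CPM per kb. In CPM, in CPM per kb of exon and in CPM per kb of coding transcript alike, Ly6a, Ly6c1 and Ly6e came first, Cd59a next and the other 4 genes last.

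**Figure D3:**
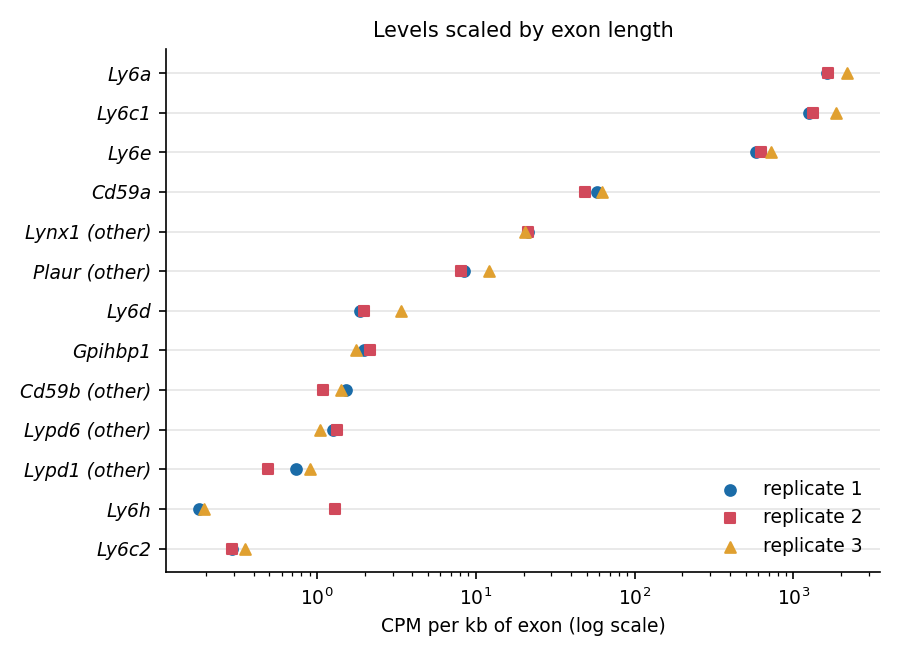
CPM per kb of exon in each library, on a log scale, for the 8 genes and for the 5 other detected genes with a Ly6/uPAR domain (marked as other). Ly6a, Ly6c1 and Ly6e lie above 580 CPM per kb in every library, and Lynx1, the highest of the others, lies between 20.5 and 21.4 CPM per kb.

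Beyond these 8 genes, few other genes of the family were detected. The 8 genes and the lists were chosen with earlier results of these data known, so the shares detected depend on that choice. Of 38 other genes with a Ly6/uPAR domain 5 were detected, against 23.2% of all genes in the table, and 13 had no count in any library, and the median of the 38 was 0.03 on the log2(CPM + 1) scale. Lynx1, a modulator of nicotinic receptors, had 99.4, 99.5 and 95.8 CPM in replicates 1, 2 and 3 and varied little. Plaur, the urokinase receptor, had 22.1, 21.1 and 31.7 CPM and was highest in replicate 3, as Ly6a and Ly6c1 were. Lypd1, a neuronal relative of Lynx1, had 5.01 ± 1.47 CPM, Lypd6 4.52 ± 0.582 CPM and Cd59b 1.75 ± 0.282 CPM (SD, n = 3 each).

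Ly6i and Lypd2 were the highest of those not detected. Ly6i, which lies close to Ly6a, had 0.715, 0.765 and 1.98 CPM in replicates 1, 2 and 3, with replicate 3 above the others. Some windows of 50 bases of the Ly6a transcript also occur in Ly6i, I830127L07Rik, Ly6c1 or Ly6c2 (8.05% of all its windows), so the count of Ly6i is uncertain. Lypd2 had 0.803 ± 0.0363 CPM. Ly6g, the neutrophil antigen, had 15, 0 and 8 counts. Of the 38 genes 13 had counts enough for the edgeR test of variability, and none of those 13 passed it.

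The enzymes that make and attach the GPI anchor were detected throughout. Of 28 listed genes 27 were in the table (Pigy was not found by symbol) and 27 were detected, with a median of 4.24 on the log2(CPM + 1) scale. Pigq, of the complex that starts anchor synthesis, had 87.4 ± 0.978 CPM, and Pigt and Pigk, subunits of the transamidase that joins anchor to protein, had 78.4 ± 1.93 and 70.3 ± 2.68 CPM. Dpm1, which supplies mannose, was the lowest with 1.36 ± 0.321 CPM. The sum over the list was 681, 672 and 664 CPM in replicates 1, 2 and 3, while the sum over the 8 Ly6 family genes was 6403, 6654 and 8611 CPM. None of the 27 passed the edgeR test of variability.

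Other GPI-anchored surface proteins were detected as well, 14 of 14, with a median of 4.79. Car4, the carbonic anhydrase of capillaries, had 448, 562 and 621 CPM in replicates 1, 2 and 3, Alpl (alkaline phosphatase) had 329 ± 24.6 CPM and Prnp (prion protein) 305 ± 33.1 CPM. Cd109 was the lowest with 1.52 ± 0.327 CPM. Per kb of exon, Car4 had 277 ± 44.5 CPM per kb, below the 1819 ± 316 of Ly6a and above the 56.6 ± 6.95 of Cd59a, and its range overlapped neither.

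Interferon-stimulated genes were measured because Ly6e and Ly6a belong to that response. Of 12 such genes 11 were detected, with a median of 6.31 on the log2(CPM + 1) scale. Ifitm3 had 577 ± 40.8 CPM, Bst2 118 ± 6.15 CPM, Oasl2 113 ± 5.50 CPM and Mx1 0.469 ± 0.0837 CPM. Of the 12 genes 8 were highest in replicate 3, as Ly6a and Ly6e were, 1 in replicate 2 and 3 in replicate 1. Ifitm3 was among those highest in replicate 1, with 622, 565 and 543 CPM in replicates 1, 2 and 3. None of the 12 passed the edgeR test of variability.

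**Figure D4:**
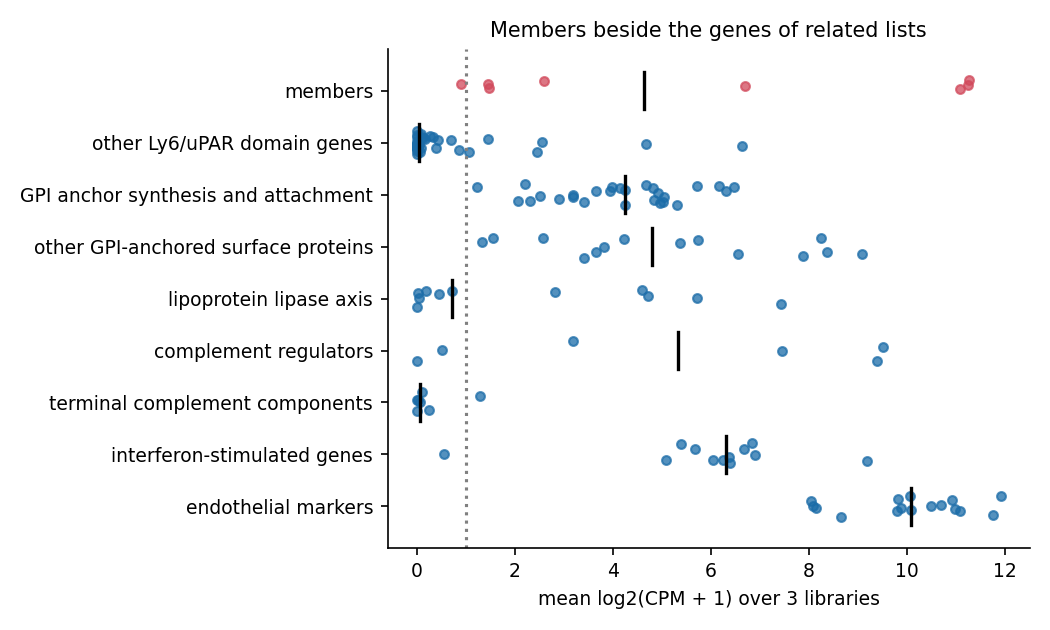
Mean log2(CPM + 1) over the 3 libraries of each gene (points) in the Ly6 family and in 8 related lists; black bars are list medians and the dotted line is 1 CPM. The 8 genes have a median of 4.64, near which no gene lies: Gpihbp1 is next below at 2.588 and Cd59a next above at 6.685. The 16 endothelial markers have a median of 10.07.

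Depth was 128428355, 136672205 and 150449539 counts in replicates 1, 2 and 3, and 3 counts correspond to 0.0231, 0.0215 and 0.0207 CPM. Markers of the labelled tissue were present, with all 16 endothelial, 10 pericyte, 8 smooth muscle and 10 microglial genes detected. Summed levels ranged over the libraries from 3852 to 4077 CPM for pericyte, 5377 to 6149 for smooth muscle, 781 to 914 for fibroblast, 1050 to 1935 for astrocyte and 124 to 141 for oligodendrocyte lineage markers. Border macrophage markers summed to 18.7 to 30.6 CPM. Erythroid genes summed to 1088 CPM in replicate 1, against 134 and 62.5 CPM in replicates 2 and 3, and all 5 were called variable, as were the 4 pituitary genes.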

How the data were processed

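The submitters deposited 1 table of raw counts per gene for the 3 libraries. Per the labels' protocols, libraries were made from 400 ng of total RNA with a stranded, polyA-selecting kit and read as pairs of 150 bases. Per the submitters' processing notes, the authors used featureCounts and Subread 1.4.6-p5 with build GRCm39; the sources used here do not give the aligner, annotation, strand setting or treatment of reads with several matches. The labels call the libraries replicates and the design text speaks of separate mice. No library is a copy of another: the mean chi-square per gene between pairs was 179 to 252 over 13211 genes.

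CPM were computed from the counts with TMM factors of edgeR 4.0.16 (R 4.3.3). Lists and lengths were joined in Python 3.11.15 (pandas 2.3.3). Variability was tested in an intercept-only quasi-likelihood fit after filterByExpr. The test was also run on counts simulated on the dispersion trend, with some genes shifted in replicate 1. Those counts held no scatter of genes around the trend, so the run does not show the power of the test on these data. A pseudocount of 1 served on the log2 scale; it understates differences between genes near 0. Exon lengths and shared windows came from GENCODE M21 (GRCm38, all 8 genes matched by symbol), another build than the table's. No exon of the 8 genes overlaps an exon of another gene there. The only coordinates given are those of the promoter windows of Ly6c1 and Ly6c2, in build GRCm38.p6. Named beside the 8 genes are, for the lists described, the highest 3 by CPM and the lowest, except items not reported here, with further genes picked after their values were seen. The members and lists were chosen with earlier results of these data known. Intervals cover counting error only. Alternatives were other size factors, filters, priors, thresholds, lengths, DESeq2 1.42.0 and leaving out each replicate.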

Additional observations from a re-analysis of the deposited data

How the results depend on the processing

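The number of genes called variable between the mice was 15, both with TMM and with DESeq2 size factors. It was 173 with no filter on low counts, 0 with a robust prior (785 at an unadjusted p under 0.05) and 137 as DESeq2 dispersion outliers. Leaving out 1 replicate gave 7 genes without replicate 1, 80 without replicate 2 and 33 without replicate 3. Of the 8 family genes, Ly6h alone changed its call, with no filter (adjusted p = 0.00049 in edgeR); the cause was not tested. The number of the 8 genes detected was 8 at 0.5 CPM, 4 at 5 CPM, and 6 with library totals and with each replicate left out. Of the 38 other family genes 2 rather than 5 were detected at 5 CPM. Against the order in CPM per kb of exon, 6 genes had another rank in CPM and 5 in CPM per kb of coding transcript. Set against the median of barrier genes in place of endothelial genes, Ly6a stood 0.26 ± 0.34, Ly6c1 0.43 ± 0.37 and Ly6e 0.42 ± 0.25 above it on the log2 scale, and 2 of the 3 were above it in every library. Their spread is then wider than with no median subtracted. The Ly6c1 share ranged from 99.963% to 99.966% with each replicate left out. No paired analysis was possible because all libraries belong to 1 group.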
